A study of Mus musculus with 3 samples.

Results

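The genes described here encode the proteins of the cytoplasmic ribosome, measured in single spleen B cells of mice with and without sufficient LDHA. Members were all genes whose symbol is Rps or Rpl followed by a number, with at most 1 paralog letter and digit after it, together with Rpsa, Rplp0, Rplp1 and Rplp2. Pseudogene symbols and the Rps6 kinases were left out, and at least 100 summed UMIs (unique molecular identifiers, each marking 1 captured transcript) were required. Of 32285 genes in the count matrix, 83 symbols matched and 80 passed, 32 of the small and 48 of the large subunit. The 3 left out were the paralogs Rpl10l with 0 UMIs, Rpl39l with 4 and Rpl3l with 7, and the member closest to the minimum was Rpl7l1 with 1012. Fau, Rack1 and Rpl36al, which encode further parts of the cytoplasmic ribosome, carry other symbols and are given below as neighbours of the family.

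The study asked what lactate dehydrogenase A, the enzyme that turns pyruvate into lactate, does in activated and germinal centre (GC) B cells. Spleen cells of 6 mice, 3 for each genotype (LDHA-sufficient or LDHA-deficient), were tagged with 1 antibody hashtag per mouse, sorted for viable B cells and on the activation marker GL7, and run on 1 lane of a droplet kit that reads the 5′ end of transcripts. The hashtags named WT stand for LDHA-sufficient and those named KO for LDHA-deficient mice, and all 6 mice shared the lane. Strain, age, immunisation, the deleted part of Ldha, the cells in which it was deleted and how GL7 gates were pooled are absent from the sources used here.

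After filtering, 1849 cells remained, 1800 of them B cells, with 1133366 to 2263254 UMIs per mouse and median UMIs per cell of 3712 to 4362.5. Ldha itself stood at 232, 239 and 166 CPM (counts scaled to a fixed total, with TMM adjustment) in the LDHA-sufficient and at 50.3, 50.4 and 70.4 in the LDHA-deficient mice, in the direction of the hashtag labels. The labels call the cells pre-GC and GC B cells, and Cd79a was detected in 98.7% to 100% of the cells of every B cluster. Only 172 of the 1800 B cells fell in the cluster with the 10 GC markers (Bcl6, S1pr2 and others). LDHA-sufficient mice held 60, 75 and 16 of these cells and LDHA-deficient mice 9, 6 and 6. The other classes were 183 activated or pre-GC B-like, 484 follicular B-like, 244 marginal zone B-like and 18 plasma cell-like cells. Cluster 1 (led by interferon-induced genes) and cluster 2 (390 cells, led by haemoglobin genes) had follicular markers but stayed unnamed, because other genes led them. All names were rebuilt from markers. The members were not among the genes used for clustering. The hashtag call gives each barcode at most 1 mouse by construction, and 29.0% of the barcodes called were removed as doublets across mice. Summed red cell markers (6 genes) ran from 22.3 to 3812 unadjusted CPM in the non-GC B cells of LDHA-sufficient and from 34.5 to 177 in those of LDHA-deficient mice, and their part in the results was not tested.

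Ribosomal proteins and ribosomal RNA together build the small subunit, which decodes the messenger, and the large subunit, which joins amino acids. Their messengers typically begin with a C followed by a run of pyrimidines, the terminal oligopyrimidine (TOP) motif, through which mTORC1 signalling controls their translation as a group. B cells make many ribosomes when they leave rest to grow and divide, and plasma cells devote most of their messenger pool to antibody. A few members have paralogs. Rps27l is a paralog of Rps27 and a known target of the tumour suppressor p53, while Rpl22l1 and Rpl7l1 are paralogs of Rpl22 and Rpl7.

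The start regions of these paralogs and their partners (Rpl7 not shown), and of Rps12, the member with the largest difference between genotypes in GC B-like cells, are shown because a TOP motif, where present, begins at the transcript start. Each line spans 15 bases before to 15 bases after the first RefSeq transcript start (GRCm38.p6), and capitals mark a run of at least 6 pyrimidines (C or T).
Rps27l (chr9:66946071-66946100, plus strand): ccaCTCCTCCCCgccgcctctatcccggaa
Rps27 (chr3:90213634-90213663, minus strand): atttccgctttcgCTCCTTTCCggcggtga
Rpl22l1 (chr3:28805493-28805522, plus strand): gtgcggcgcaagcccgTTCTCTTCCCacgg
Rpl22 (chr4:152325711-152325740, plus strand): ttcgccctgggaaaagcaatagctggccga
Rpl7l1 (chr17:46782642-46782671, minus strand): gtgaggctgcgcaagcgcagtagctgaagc
Rps12 (chr10:23787195-23787224, minus strand): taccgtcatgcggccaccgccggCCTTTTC
Rps27l, Rps27, Rpl22l1 and Rps12 held such a run, and Rpl22 and Rpl7l1 did not in this window. The run lay before the listed start in Rps27l, across it in Rps27, and after it in Rpl22l1 and Rps12. A run anywhere in the window was counted, so it is not by itself a TOP motif. RefSeq starts can lie apart from those of GENCODE, by 66 bases for Rps12 and 0 for Rps27l. Of the 80 members, 60 had a RefSeq start region, and 34 of these (56.7%) held a run of this length, against 29.1% of 27025 genes. The motif CGGAAG, an ETS factor core searched on both strands of the 300 bases from 250 before to 50 after the start, was in 41 of the 60 (68.3%) and in 17.2% of all genes. Rps27l, Rps27 and Rps12 had CGGAAG, and Rpl22l1, Rpl22 and Rpl7l1 did not. A match describes letters and is not a binding site.

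Members made up 18.5% of the UMIs of all barcodes, and the load was spread over many genes. Among the 5 most abundant over all barcodes were Rpl41 (94561 UMIs, 2.81% of the members' total), Rps24 (85597), Rps29 (83044) and Rps20 (78030), and the 10 most abundant together held 22.9%. Each encodes a structural protein, and Rpl41 is the shortest of the large subunit. Among the 5 least abundant were Rpl31 (12338), Rpl22l1 (9164), Rps27l (3013) and Rpl7l1 (1012), so the 3 paralogs formed the low end. In non-GC B cells (B cells outside the GC and plasma clusters), Rps24 averaged 5767 ± 161 unadjusted CPM (UMIs scaled to the same total, without TMM; SD, n = 6 mice) and Rpl22l1 543.9 ± 26.4. Rps27l averaged 125 ± 5.08 and Rpl7l1 53.2 ± 8.14 on the same scale. Each UMI counts 1 molecule at its 5′ end, so these levels were not divided by gene length. Counts of members that share sequence with other loci are less certain. The 5 annotated pseudogene symbols took 545 UMIs in all, 0.0162% of the members' total, and Rps27rt, a copy of Rps27, took 989.

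**Figure D1:**
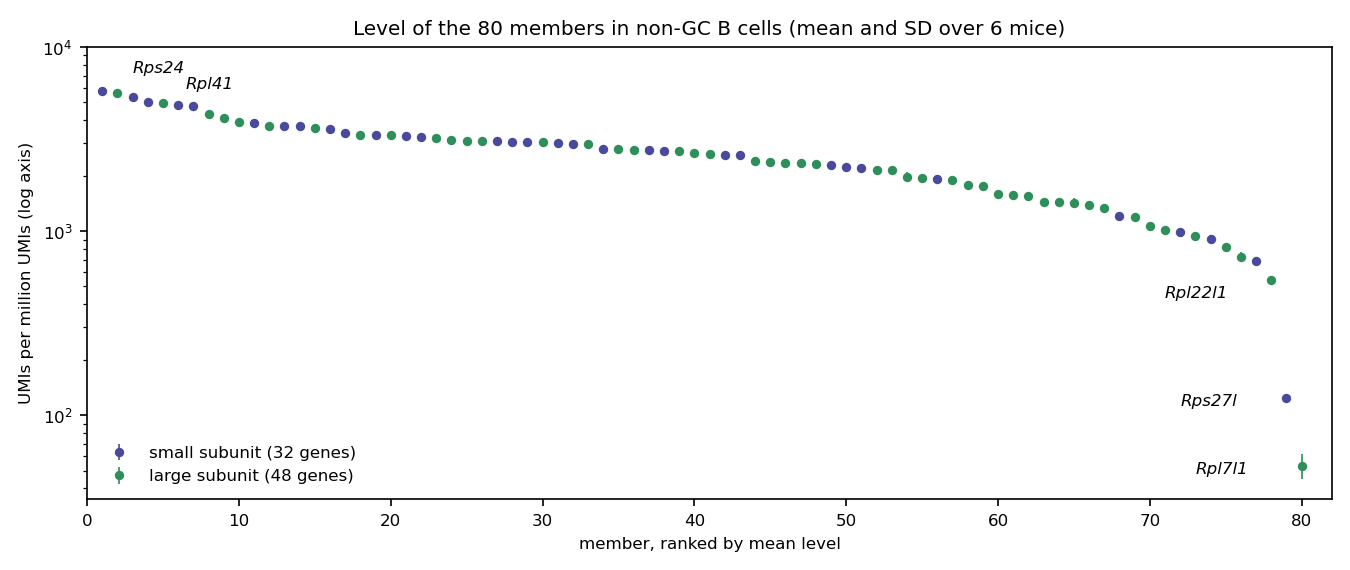
Level of each of the 80 members in non-GC B cells, in unadjusted CPM on a log axis, ranked by mean, with points for means over 6 mice, bars for the SD and colours for the subunit. The members form a continuous slope with Rpl22l1, Rps27l and Rpl7l1 at its low end, and Rpl7l1 averages 53.2 unadjusted CPM.

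The members' share of UMIs differed more between B cell states than between mice. In marginal zone B-like cells it was 25.2%, 23.9% and 27.1% in LDHA-sufficient mice 1 to 3 and 23.2%, 23.7% and 22.5% in LDHA-deficient mice 1 to 3 (mean 24.3% ± 1.64, SD, n = 6). Follicular B-like cells, the recirculating resting B cells, averaged 23.4% ± 0.903, from 22.4% to 24.9%. Activated or pre-GC B-like cells averaged 22.6% ± 1.77, from 19.4% to 24.4%. Each of these 3 states stood above the other B cells of the same mouse in 6 of 6 mice, by 5.33 ± 2.16, 4.77 ± 0.986 and 3.29 ± 1.71 percentage points (mean ± SD). The order among these 3 states was not larger than the spread between mice: follicular B-like cells were higher than marginal zone B-like cells in LDHA-deficient mice 2 and 3, and as a mean over cells the means were 21.1%, 22.5% and 21.2% in the order given.

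GC B-like cells devoted a smaller share, 18.3% ± 2.03, with 17.2%, 17.3% and 17.8% in LDHA-sufficient mice, and 21.6%, 19.7% and 15.9% in the LDHA-deficient mice. They stood below the other B cells in 5 of 6 mice, at a mean difference of -1.99 ± 1.72 points, the exception being LDHA-deficient mouse 1 with 9 GC B-like cells. Cluster 1 averaged 16.0% ± 1.49 and cluster 2 averaged 14.2% ± 0.465, both below the other B cells in 6 of 6 mice. Plasma cell-like cells had the lowest share, at 10.7%, 4.30% and 5.58% in LDHA-sufficient mice and 6.11% and 10.7% in LDHA-deficient mice 1 and 3, from 18 cells in all (mouse 2 had none). Since a state against the rest compares clusters of the same cells, these differences carry no test. Within the follicular class, cluster 0 (406 cells) averaged 24.7% ± 0.584 and cluster 5 (78 cells) 17.1% ± 2.89, so the class is not uniform.

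**Figure D2:**
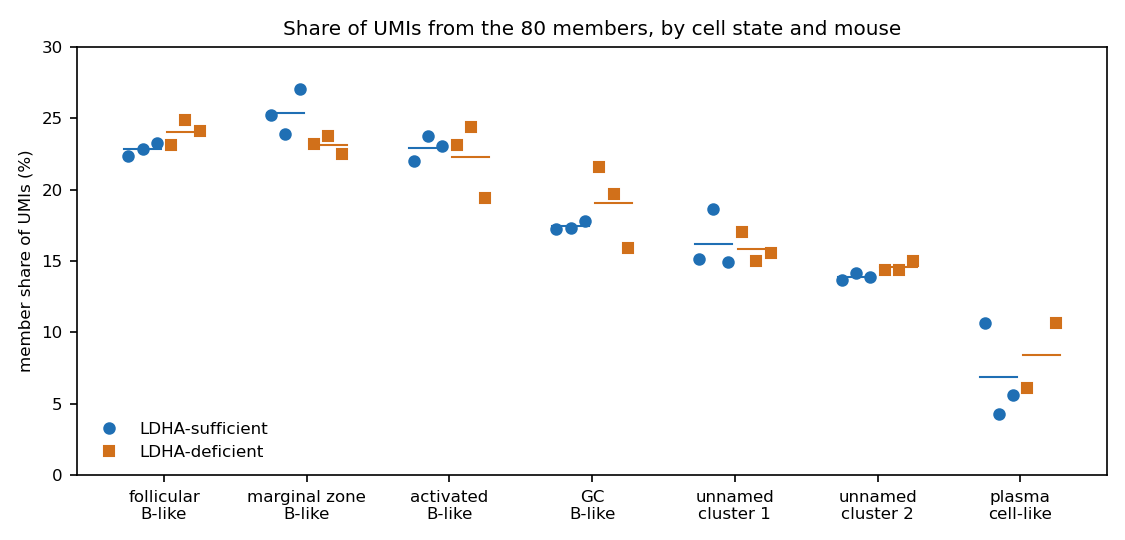
Members' share of UMIs (percent, vertical axis) in each B cell state, 1 point per mouse coloured by genotype, with short lines for genotype means. Marginal zone, follicular and activated B-like cells sit between 19.4% and 27.1%, GC B-like cells between 15.9% and 21.6%, and plasma cell-like cells between 4.30% and 10.7%.

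Single cells spread widely around the mean share over all B cells, and the spread within a state differed between states. In cluster 2 the 10th and 90th percentiles were 11.1% and 17.96%, around a median of 13.5%. In marginal zone B-like cells they were 11.2% and 34.7%, around a median of 19.1%. Over all B cells the median cell had 15.6% of its UMIs in members, with the 10th percentile at 10.7% and the 90th at 29.5%, and the distribution had a broad upper part. A line at 20%, placed after the cell values were seen, divided it into 629 of 1800 cells at or above (34.9%) and the rest below, with 197 cells (10.9%) between 18% and 22%. Cells at or above the line were a range and not a type. Thinning every cell to 1000 UMIs, which all kept cells reached, gave 35.3%. Cells above the line had a median of 5310 UMIs and those below 3399, so depth moved with the share.

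The fraction of cells above the line did not follow the order of the summed shares. The fraction above was 62.6% of follicular, 51.4% of activated, 46.3% of marginal zone and 30.2% of GC B-like cells, but 13.6% of cluster 1 and 6.15% of cluster 2. Cluster 0 had 70.2% above and cluster 5 had 23.1%. The median cell was at 23.4% in follicular B-like, 19.1% in marginal zone B-like and 13.5% in cluster 2 cells. The 90th percentile of marginal zone B-like cells reached 34.7%, the highest among the named states.

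**Figure D3:**
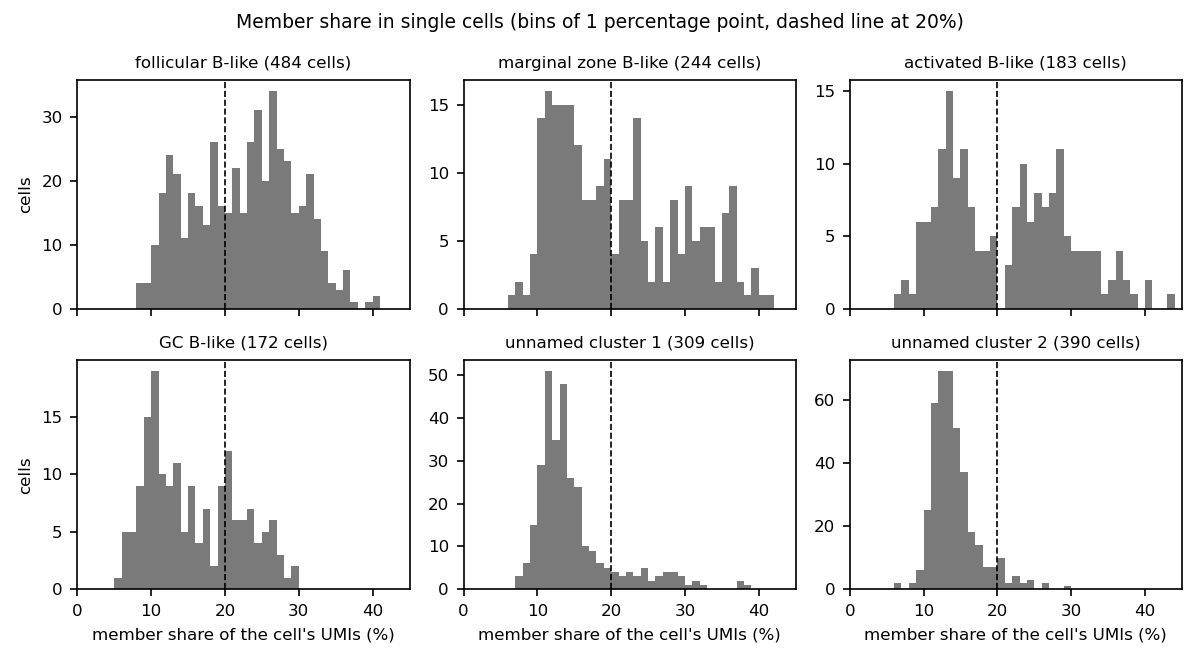
Distribution of the members' share of UMIs over single cells (percent, horizontal axis; number of cells, vertical axis) by B cell state, with a dashed line at 20%. Follicular B-like cells lie mostly above the line (62.6%), and cluster 2 cells mostly below it (6.15% above).

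Other genes with TOP messengers followed the members from cell to cell. Across the 231 to 356 non-GC B cells of each mouse, Spearman's correlation between the members' share and the share of 30 other ribosome, translation and TOP genes (both of UMIs, the second of UMIs outside the members) was 0.85 to 0.91 over the 6 mice. The correlation was 0.50 to 0.55 for the mitochondrial ribosomal protein genes and -0.03 to 0.19 for ribosome biogenesis genes, which make and process ribosomal RNA in the nucleolus. These correlations describe cells that share a library and a depth range. Malat1, a nuclear noncoding RNA, ran the other way, with a correlation of -0.46 to -0.24. Cells above the line had median Malat1 shares of 1.49% to 1.62% of UMIs outside the members, and cells below it 2.15% to 2.41%. Mitochondrially encoded transcripts, a sign of cell quality, had medians of 2.56% to 3.03% above and 2.82% to 3.19% below, lower above the line in 5 of 6 mice. The part of Malat1, mitochondrial RNA and depth in the members' share was not tested.

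The same contrast was read gene by gene, as the log2 ratio of cells above to cells below the line within each mouse, on UMIs outside the members. Over the 5663 other genes the median was -0.16 and 13.7% were higher above the line in all 6 mice. Of the 30 ribosome, translation and TOP genes, 25 were (83.3%), with a median of 0.82. Ribosome genes with other symbols moved alongside the members: Fau (1.12 ± 0.06, mean log2 ± SD over 6 mice), Rack1 (0.94 ± 0.18) and Rpl36al (0.89 ± 0.12). So did Eef1a1, the elongation factor that brings transfer RNA to the ribosome (0.80 ± 0.10), and Tpt1, a TOP messenger for a growth-related protein (1.21 ± 0.06). Among mitochondrial ribosomal proteins 32 of 68 (47.1%, median 0.52) were higher in all 6 mice, and among ribosome biogenesis genes 4 of 26 (15.4%, median 0.03), close to the share over all genes. Subunits of oxidative phosphorylation, a list chosen after its values were seen, had 62 of 72 (86.1%, median 0.88). Malat1 was lower in 6 of 6 mice (-0.58 ± 0.11).

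Short transcripts went with the higher side of this contrast. Over 3615 to 3740 genes outside the members, the Spearman correlation between coding transcript length and the log2 ratio was -0.61 to -0.56 in the 6 mice, and among the 80 members it was -0.46 to -0.29. Genes are not independent replicates. Since the members' share drew the line, members are higher above it by construction, and only their order is described. The member that differed least between the groups of cells was Rpl7l1, with a median over mice of 0.18 (-0.01 to 0.50). It was followed by Rpl4 at 0.77, Rpl5 at 0.90, Rps15 at 0.94 and Rpl13a at 1.00, where these and the next 4 genes were picked after their values were seen. Rpl32 (1.60), Rpl39 (1.56), Rps12 (1.51) and Rpl41 (1.49) stood highest. Rps27l was at 1.21, among the other members.

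The family did not move as 1 block between states, and Rps27l stood out most. Each state was set against all other B cells of the same mouse as a log2 ratio of unadjusted CPM (5 added to each value), in mice with at least 20 cells of the state. In GC B-like cells, which only LDHA-sufficient mice 1 and 2 held in that number, the median member was at -0.18. There 12 members were higher and 55 lower in both mice. Such counts, here and for the states and clusters below, were not set beside the share over all genes. The lowest members were Rps27 (-0.80 ± 0.06), Rps24 (-0.79 ± 0.02) and Rpl37a (-0.61 ± 0.02). The highest were Rps27l (1.03 ± 0.19) and Rps2 (0.32 ± 0.04), which lies near the messenger channel. Rps27 and its paralog thus held opposite ends of the family in GC B-like cells.

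In follicular B-like cells the order turned. Rps27 (0.71 ± 0.12), Rps24 (0.67 ± 0.10) and Rpl38 (0.55 ± 0.09) were highest, each above the other B cells in 6 of 6 mice. Rps27l (-0.70 ± 0.47) was lowest and below in 6 of 6, followed by Rpl7l1 (-0.37 ± 0.51) and Rps2 (-0.12 ± 0.21). Of the 80 members 59 were higher and 1 was lower in every mouse, with a median of 0.29. Rps27 and Rps24 were also among the 10 leading genes of cluster 0, although no member entered the clustering.

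Activated or pre-GC B-like cells had 45 members higher in every mouse and 0 lower, with a median of 0.23. Rpl7l1 (0.65 ± 0.21) and Rps2 (0.53 ± 0.22) were highest with Rps27l (0.46 ± 0.96), and Rps27l was above the other B cells in only 4 of 6 mice. Rps27 (-0.08 ± 0.21) and Rpl24 (0.09 ± 0.12) were among the 3 lowest. In marginal zone B-like cells 71 members were higher in every mouse, with a median of 0.34. There Rpl32 (0.57 ± 0.14), Rpl39 (0.55 ± 0.16) and Rplp1 of the P stalk, which recruits elongation factors (0.53 ± 0.22), led. Rps27l (-0.42 ± 0.59) and Rpl7l1 (-0.13 ± 0.31) trailed. In cluster 2, 79 of 80 members were lower in every mouse (median -0.54), and in cluster 1, 48 were (median -0.35).

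Rps27l (chr9:66946086-66949516, plus strand) and Rps27 (chr3:90212522-90213651, minus strand) encode alternative versions of 1 protein of the small subunit. In GC B-like cells Rps27l stood at 291, 295 and 331 unadjusted CPM in LDHA-sufficient mice and 423, 249 and 272 in LDHA-deficient mice. In follicular B-like cells it stood at 84.6, 108 and 107, and at 104, 125 and 117. The 3 highest cells held 43 of 46, 18 of 21 and 20 of 27 Rps27l UMIs of the GC B-like cells of the LDHA-deficient mice, and 89 of 246, 100 of 283 and 32 of 63 of those of the LDHA-sufficient mice. Every mouse was higher in GC B-like than in follicular B-like cells, with means of 310 ± 61.7 and 108 ± 13.7. Rps27 went the other way, at 2886 ± 390 in GC B-like and 6464 ± 439 in follicular B-like cells. As a share of the pair's UMIs, Rps27l made up 10.1%, 9.63% and 8.90% of GC B-like cells' counts in LDHA-sufficient mice, and 13.0%, 7.0% and 10.1% in LDHA-deficient mice. In follicular B-like cells it made up 1.28% to 1.77%. At least 1 Rps27l UMI was seen in 66.7% to 100% of the GC B-like cells of a mouse and in 25.0% to 39.6% of follicular B-like cells, at median depths of 10198.5 and 4049 UMIs per cell. No class was taken to lack Rps27l, so these shares were not set against a background of free RNA.

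**Figure D4:**
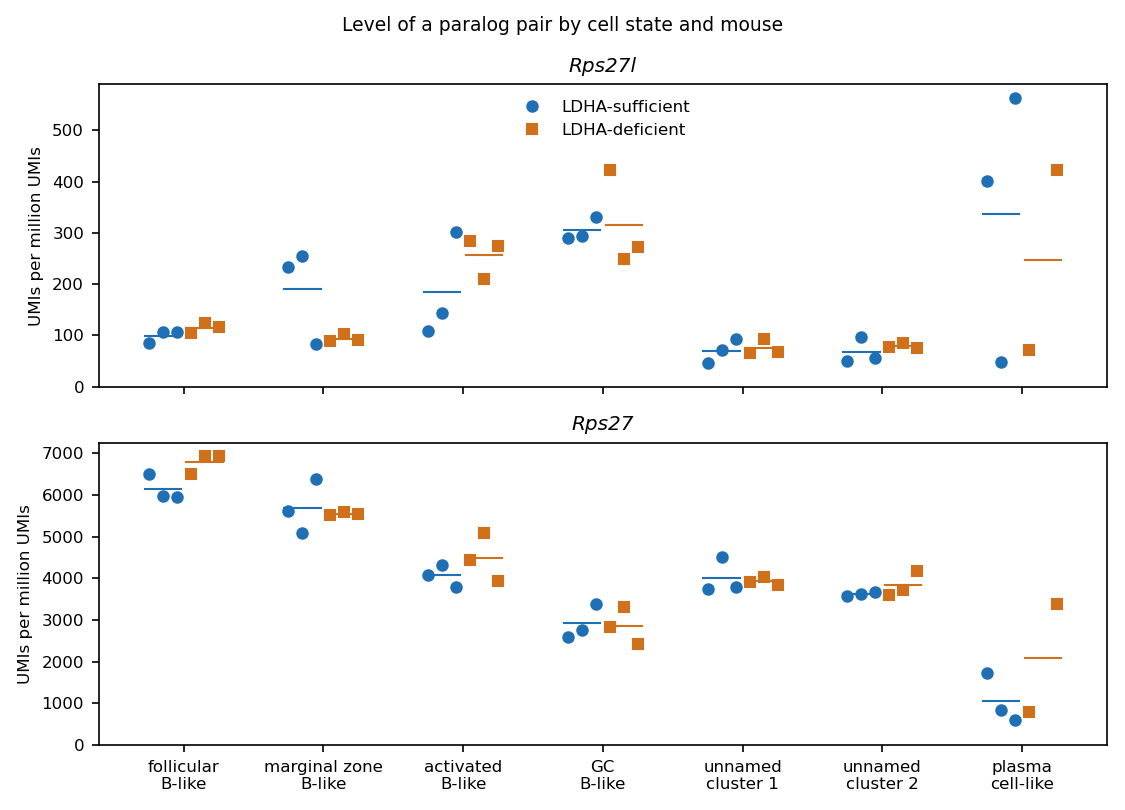
Rps27l and Rps27 in each B cell state, in unadjusted CPM, with 1 point per mouse and bars for means, coloured by genotype. Setting plasma cell-like cells aside (18 cells, with Rps27l from 48.1 to 563.7), mean Rps27l is highest (310 ± 61.7) and mean Rps27 lowest (2886 ± 390) in GC B-like cells. Mean Rps27 is highest in follicular B-like cells (6464 ± 439), where mean Rps27l (108 ± 13.7) is lower than in the other named states. In clusters 1 and 2 mean Rps27l is lower still, at 73.0 and 73.7. By mouse, Rps27l is lower in marginal zone than in follicular B-like cells in LDHA-sufficient mouse 3 (82.4 against 107). The same holds in LDHA-deficient mice 1 to 3 (89.1, 102 and 90.4 against 104, 125 and 117). In LDHA-sufficient mice 1 and 2 Rps27l is higher in marginal zone B-like cells (233 and 255 against 84.6 and 108).

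Between genotypes, the members' share of UMIs did not differ beyond the spread between mice over all B cells. It was 18.9%, 19.0% and 19.7% in LDHA-sufficient mice and 20.5%, 21.1% and 19.3% in LDHA-deficient mice. The groups overlapped, with means of 19.2% ± 0.452 and 20.3% ± 0.918 (p = 0.2, exact two-sided permutation test over 3 against 3 mice, where 0.1 is the smallest possible). In non-GC B cells the share was 21.1%, 21.0% and 20.9% against 20.8%, 21.1% and 19.7% (difference -0.475 points, exact permutation p = 0.4). In GC B-like cells the difference was 1.59 points (exact permutation p = 0.4), with a spread of 2.89 between LDHA-deficient mice that had 6 to 9 such cells each. Activated or pre-GC B-like cells differed by -0.629 points (exact permutation p = 0.9), and by 0.491 as a mean over cells. The genotype difference in the GC cluster minus that in non-GC B cells was 2.06 points (exact permutation p = 0.3).

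Marginal zone and follicular B-like cells differed between genotypes in opposite directions with the cells used here, but not under every choice of cells. In marginal zone B-like cells all LDHA-deficient mice, given above, lay below all LDHA-sufficient mice, at 23.2% ± 0.605 against 25.4% ± 1.60 (exact permutation p = 0.1, the smallest possible, and 0.4 adjusted over the 6 populations). The difference, -2.24 points, was -0.696 with hashtags called by a ratio and -0.842 with mitochondrial UMIs under 5%. In follicular B-like cells the values were 22.4%, 22.8% and 23.3% against 23.2%, 24.9% and 24.1%, a difference of 1.21 points with overlap (exact permutation p = 0.2) that turned to -0.912 and -0.861 under the same alternatives. Cluster 5, the low-share part of this class, held 19, 11 and 28 cells in LDHA-sufficient and 12, 4 and 4 in LDHA-deficient mice. Within cluster 0 the shares were 24.3%, 23.8% and 25.4% against 25.1%, 25.0% and 24.8%. The part of this mix in the follicular values of this paragraph was not tested. The marginal zone share minus the follicular share of the same mouse was 2.56 ± 1.39 points in LDHA-sufficient mice, and -0.885 ± 0.834 in the LDHA-deficient mice, without overlap (difference -3.45, exact permutation p = 0.1). That contrast went to 0.216 with ratio calls and 0.0188 with the stricter mitochondrial limit, each of which re-clusters the cells. The fraction of follicular B-like cells above the 20% line was 53.9%, 59.2% and 57.8% in LDHA-sufficient mice, and 62.7%, 72.1% and 68.4% in the LDHA-deficient mice. For marginal zone B-like cells it was 51.02%, 53.1% and 48.0% against 43.4%, 43.8% and 40.5%. Neither set overlapped (exact permutation p = 0.1 for each, 0.3 adjusted over 6 populations), and both kept their sign in the alternatives tried. With mitochondrial UMIs under 5% the differences were 2.15 points for follicular and -2.39 for marginal zone B-like cells, instead of 10.7 and -8.15. The exact permutation test cannot reach 0.05 with 3 against 3 mice.

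Gene by gene, over all B cells, 1 of 80 members passed the test (edgeR's quasi-likelihood test, Benjamini-Hochberg adjusted over 9181 genes, threshold 0.05), against 1.2% of all genes in either direction and 0.991% in the lower direction. The 1 was Rps27l, at 203, 200 and 180 CPM (TMM-adjusted) in LDHA-sufficient mice, and 146, 135 and 141 in the LDHA-deficient mice. All LDHA-deficient mice lay below all LDHA-sufficient mice, and Rps27l fell by 0.47 on the log2 scale (SE 0.109, edgeR adjusted p = 0.0453). It was also the only member whose genotypes did not overlap, while 19.7% of all genes did not, 10.2% with LDHA-deficient mice lower. Its partner Rps27 was at 3823, 3781 and 4783 against 4821, 5431 and 4676, with overlap (log2 0.27, edgeR adjusted p = 0.178). The median member was at 0.07 (0.03 without LDHA-deficient mouse 2 and 0.13 without mouse 3) and the median of all genes at 0.02.

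The size of this difference stayed between -0.52 and -0.44 when each mouse was left out in turn, while the call, close to the threshold, depended on the mice included. It passed without LDHA-sufficient mouse 3 (edgeR adjusted p = 0.000504), when 7 other members were called higher, as were 543 of 9561 genes. It did not pass without LDHA-sufficient mouse 1 (0.225) or 2 (0.196), nor without LDHA-deficient mouse 1 (0.154), 2 (0.253) or 3 (0.171), nor in DESeq2 (0.0637), which called 0 members, nor with library totals in place of TMM (0.0734). Without a filter on low counts Rps27 was called as well.

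GC B-like cells held a larger part of the Rps27l UMIs than of the cells in every mouse, and plasma cell-like cells did so in several. Their part in the all-B difference was not tested beyond the values given here. The GC B-like cells held 53.7%, 64.5% and 25.7% of a mouse's Rps27l UMIs in LDHA-sufficient mice, and 24.7%, 9.42% and 16.7% in the LDHA-deficient mice, while they were 18.8%, 22.9% and 5.69%, and 3.30%, 1.66% and 2.52%, of its B cells. GC B-like cells are deeper, and they held 38.1%, 44.3% and 13.3%, and 8.39%, 4.93% and 8.78%, of all UMIs of its B cells. Plasma cell-like cells held 63, 2 and 42 of the 458, 439 and 245 Rps27l UMIs of LDHA-sufficient mice 1 to 3, and 2 and 3 UMIs in LDHA-deficient mice 1 and 3. With GC and plasma cells set aside, Rps27l was at 124, 135 and 124 CPM in LDHA-sufficient and 120, 129 and 125 in LDHA-deficient non-GC B cells. Those values overlapped (log2 -0.03, edgeR adjusted p = 0.994). Within GC B-like cells it was at 335, 346 and 400 against 520, 313 and 340 CPM (log2 0.15, edgeR adjusted p = 0.907). In sums over all B cells, fewer cells of a state and less RNA per cell cannot be told apart.

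In non-GC B cells edgeR called 0 of 80 members, against 0.0465% of 8593 genes. At an unadjusted p under 0.05 edgeR had 1 member, against 452 of all 8593 genes, and DESeq2 called 0 members. Of the members 76 had a negative log2 value (44 without LDHA-deficient mouse 3), but the median was -0.05 and that of all genes -0.003. There were 6 members whose genotypes did not overlap, all lower in LDHA-deficient mice, against 5.39% of all genes in that direction and 10.4% in either. Rpl3, which shapes the peptidyl transferase centre, was at 1573, 1490 and 1488 CPM against 1448, 1417 and 1251 (log2 -0.14). The other 5 were Rpl10 at -0.12, Rps25 at -0.12, Rps2 at -0.11, Rps26 at -0.10 and Rpl23a at -0.08, with edgeR adjusted p of 0.927 to 0.978 over the 6.

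**Figure D5:**
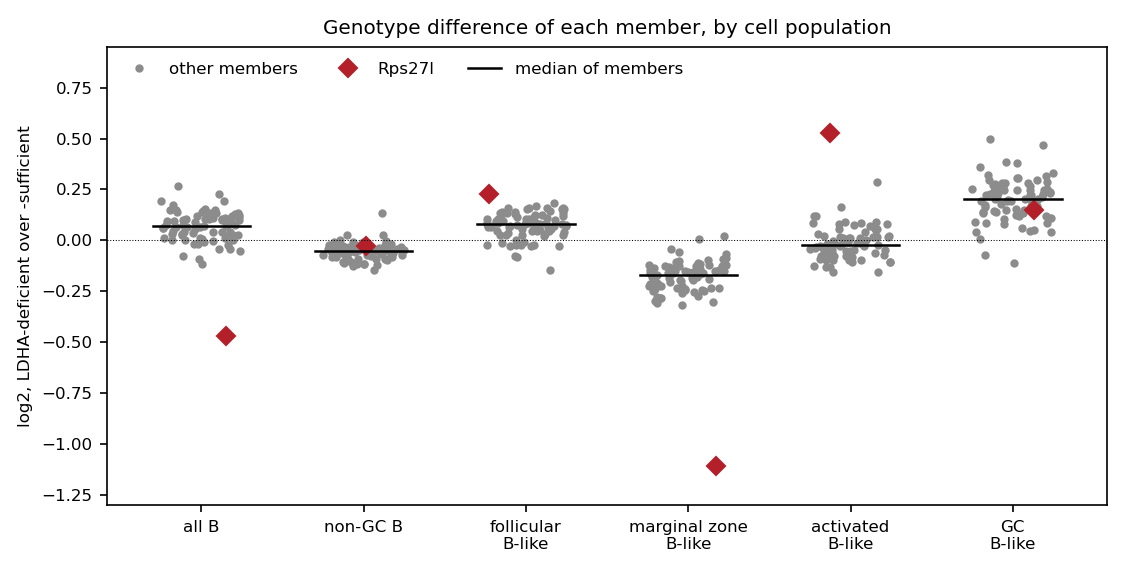
Log2 ratio of LDHA-deficient to LDHA-sufficient mice for each member (edgeR, points) in each B cell population, with a black bar for the median of the members. Members centre near 0 over all B and non-GC B cells (medians 0.07 and -0.05), below 0 in marginal zone B-like cells (-0.17) and above it in GC B-like cells (0.20), and Rps27l is marked.

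Within named states few or no members were called. In follicular B-like cells 68 of 80 members had positive values (median 0.08, all genes -0.001; -0.08 both with ratio hashtag calls and with mitochondrial UMIs under 5%), and edgeR called 0 against 0.113% of all genes. Cluster 5 made up an unequal part of this class between the genotypes, as given above, and its part in these values was not tested. There 16 members had an unadjusted p under 0.05 in edgeR (233 of 4408 genes) and 9 in DESeq2 (51 of 4408), which called 0. The 20 that did not overlap were all higher in LDHA-deficient mice (5.38% of all genes, and 9.96% in either direction), Rps27 among them with a log2 of 0.16 and an edgeR adjusted p of 0.841. In activated or pre-GC B-like cells 31 members had positive and 49 negative values (median -0.02). The median was 0.12 without LDHA-deficient mouse 3 and -0.16 without mouse 2. EdgeR called 0 members there, against 0.109% of all genes, and DESeq2 called 0 too. At an unadjusted p under 0.05 edgeR had 161 of 3682 genes and 1 member, Rps27l. Its values were 121, 165 and 343 CPM against 323, 259 and 296 (log2 0.53, SE 0.260, edgeR adjusted p = 0.999). The groups overlapped for every member there (8.53% of all genes did not).

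In marginal zone B-like cells 78 of 80 members had negative values, with a median of -0.17 against 0.003 over all genes. The median was -0.07 with ratio hashtag calls, -0.05 with mitochondrial UMIs under 5% and -0.11 without LDHA-sufficient mouse 3. The groups did not overlap for 22 members, all lower in LDHA-deficient mice, against 6.86% of all genes in that direction and 13.1% in either. Only Rps27l passed (edgeR, lower, against 0.211% of all genes lower and 0.264% in either direction), while 20 members had an unadjusted p under 0.05 and DESeq2 called 0. Rps27l was at 266, 282 and 97.1 CPM in LDHA-sufficient mice, and 99.3, 116 and 96.6 in the LDHA-deficient mice, so LDHA-sufficient mouse 3 lay among the LDHA-deficient mice. It fell by 1.11 on the log2 scale (SE 0.248, edgeR adjusted p = 0.0241). The adjusted p was 1.98e-05 without LDHA-sufficient mouse 3, and Rps27l no longer passed without LDHA-sufficient mouse 1 (0.125) or mouse 2 (0.152) and without LDHA-deficient mouse 1 (0.341) or 3 (0.316). It was also lost with ratio hashtag calls (0.121) and with mitochondrial UMIs under 5% (0.63).

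A few cells carried many of those counts. LDHA-sufficient mouse 1 had 81 Rps27l UMIs in 49 marginal zone B-like cells, and its 3 highest cells held 43 of them. Mouse 2 had 53 UMIs in 32 cells, 29 of them in a single cell. LDHA-sufficient mouse 3 had 14 UMIs, and the LDHA-deficient mice had 28, 29 and 19, with no cell above 5. At least 1 UMI was found in 49.0% and 46.9% of the cells of LDHA-sufficient mice 1 and 2, in 28.0% for mouse 3 and in 34.0%, 33.3% and 37.8% for LDHA-deficient mice.

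Other p53 targets were read beside Rps27l. In marginal zone B-like cells 2 of the 7 that were tested passed, both lower, against 0.211% of all genes. Ccng1, a cyclin G induced by p53, was at 217, 133 and 104 CPM against 92.2, 79.8 and 56.0 (log2 -1.04, edgeR adjusted p = 0.0453). Bax, which opens the outer mitochondrial membrane in apoptosis, was at 210, 170 and 83.2 against 85.1, 59.8 and 81.4, with overlap (log2 -1.11, edgeR adjusted p = 0.0241). Over all B cells edgeR called 0 of 18 tested targets, with a median of -0.28, and Ccng1 came closest at -0.53 (edgeR adjusted p = 0.0712). Mdm2, the ubiquitin ligase of p53, was at -0.25 and Cdkn1a, the p53-induced cell cycle inhibitor, at -0.41, neither called. In non-GC B cells edgeR called 0 of 14 tested targets, 9 of them negative, with a median of -0.12. Fas belongs both to this list and to the GC markers, and the part of GC B-like cells in the all-B median was not tested.

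In GC B-like cells 79 members were tested and 77 had positive values, with a median of 0.20 against 0.002 over all 2794 genes. The median was 0.29 without LDHA-deficient mouse 3, 0.12 without LDHA-deficient mouse 1, 0.11 with library totals and no TMM (67 positive), 0.09 with ratio hashtag calls (65 positive) and 0.07 with no filter on low counts (61 of 80 positive). EdgeR called 0 members and 0 genes (0%), and DESeq2 called 0 members. In edgeR 3 members had an unadjusted p under 0.05, against 212 of all 2794 genes. The groups did not overlap for 17 members, all higher in LDHA-deficient mice, against 6.19% of all genes in that direction and 13.1% in either. Rps12, a small subunit protein singled out after its values were seen, was at 2567, 2409 and 2661 CPM against 4466, 3453 and 2847 (log2 0.50, SE 0.169, edgeR adjusted p = 0.501). The test of the difference between the genotype effects in the GC cluster and in non-GC B cells called 0 members (0.127% of all genes). This test had 6 members at an unadjusted p under 0.05, against 593 of all 9438 genes, and DESeq2 called 0. Its median over members was 0.17 against -0.09 over all genes, and was 0.015 without LDHA-deficient mouse 1, 0.04 with ratio hashtag calls and 0.03 with no filter on low counts. For Rps12 the difference of effects was 0.49 on the log2 scale (edgeR adjusted p = 0.239) and for Rps27l it was 0.08.

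The balance of the subunits differed little between mice over all B and non-GC B cells. The ratio of small to large subunit UMIs over all B cells was 0.828, 0.835 and 0.835 in LDHA-sufficient mice, and 0.846, 0.849 and 0.848 in the LDHA-deficient mice. In non-GC B cells it was 0.844, 0.844 and 0.834 against 0.849, 0.850 and 0.850. LDHA-deficient mice lay above in both, by 0.015 and 0.0094, without overlap (exact permutation p = 0.1 for each and after adjustment over the 2, the smallest possible). States differed more, with mice from 0.843 to 0.868 in follicular B-like, 0.810 to 0.852 in GC B-like and 0.735 to 0.794 in plasma cell-like cells. The part of the mix of states in the genotype difference was not tested.

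Paralog shares were compared as well. Rps27l made up 5.05%, 5.02% and 3.63% of its pair in LDHA-sufficient mice, and 2.94%, 2.43% and 2.92% in the LDHA-deficient mice over all B cells, without overlap (difference -1.80 points, exact permutation p = 0.1, 0.6 adjusted over 6 populations). In non-GC B cells it was 2.37%, 2.67% and 2.35% against 2.32%, 2.28% and 2.51%, which overlapped (-0.092 points, exact permutation p = 0.5). Rpl22l1 made up 26.0%, 26.1% and 26.2% of its pair with Rpl22 against 24.5%, 25.9% and 26.4% in non-GC B cells (-0.534 points, exact permutation p = 0.6). Rpl7l1 made up 3.86%, 3.36% and 3.12% against 3.08%, 4.38% and 4.35% of its pair with Rpl7 (0.491 points, exact permutation p = 0.4). Rpl22l1 was thus the best represented of the 3 paralogs in every mouse, and neither it nor Rpl7l1 separated the genotypes.

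Among groups of members by role, none held a call other than Rps27l in any population, and the groups were not tested against the family. Genes mutated in Diamond-Blackfan anaemia, a failure of red cell production, had a median of 0.10 over all B and -0.04 in non-GC B cells (13 tested). The 9 members known to bind the p53 regulator MDM2 had 0.07 and -0.04, with Rps27l as their 1 call over all B cells. The P stalk (Rplp0, Rplp1, Rplp2) had 0.04 and -0.06. The medians in marginal zone B-like cells were -0.16, -0.21 and -0.23 in the same order, and in GC B-like cells 0.20, 0.15 and 0.22.

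Neighbouring gene groups were tested in the same fit. Of the 30 other ribosome, translation and TOP genes edgeR called 0 in each of the 6 populations. Their medians were -0.07 over all B, -0.05 in non-GC B, -0.19 in marginal zone and 0.03 in follicular B-like cells. In GC and activated B-like cells they were 0.09 and 0.04. The sign was that of the members except over all B and in activated B-like cells, where the members' medians were 0.07 and -0.02. Fau, Rack1, Rpl36al, Eef1a1 and Tpt1 were not called in any population. Mitochondrial ribosomal proteins had 0 of 78 called over all B cells (median -0.18, with 18 that did not overlap, all lower, against 10.2% of all genes) and a median of -0.03 in non-GC B cells. Ribosome biogenesis genes had 0 of 30 called, with medians of 0.03 over all B and 0.10 in non-GC B cells. Their medians were 0.15 in activated, 0.05 in follicular, -0.10 in marginal zone and -0.14 in GC B-like cells. For the difference of effects (GC cluster minus non-GC B cells) the median was -0.36, with 24 of 30 negative.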

How the data were processed

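The authors deposited gene UMI counts of filtered barcodes and hashtag UMI counts, made with Cell Ranger 6.0.0 (6.0.2 per the matrix header) and Seurat 4.2.1 on mm10, per the submitters' processing notes. Hashtags were called with HTODemux (Seurat 5.3.0, quantile 0.99), and 820 barcodes with tags of several mice were removed. Doublets within a mouse could not be seen. Cells with 500 genes, 1000 UMIs and under 10% mitochondrial UMIs were clustered (scanpy 1.11.5, Leiden, resolution 0.8) without ribosomal, Ldha, mitochondrial, receptor and sex-linked genes, and 49 myeloid cells were left out. Clusters were named from at least 3 markers. The labels of the hashtag library name HSPCs, but B cell markers were taken as the guide.

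Counts were summed per mouse and state (minimum 20 cells, 5 for GC B-like) and tested with edgeR 4.0.16 (R 4.3.3, quasi-likelihood, TMM, filterByExpr) over all genes, after a check on simulated counts. DESeq2 1.42.0 was an alternative. Hashtag numbers name mice and pair none. Nothing in the labels says more on the mice than 3 per genotype, so p-values measure the spread between these 6 animals. Levels by state are unadjusted CPM, and genotype levels are TMM-adjusted CPM. Start sequences are RefSeq's (GRCm38.p6), and gene coordinates are GRCm38.

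The members and gene lists were chosen with earlier results of these data known. Named genes were Rps27l, the paralogs and their partners, called members or those with the largest and smallest values among genes whose genotypes do not overlap, the 5 most and least abundant, the 3 highest and lowest per state, Ldha, and a few p53 target and TOP genes. A few genes that this rule names are not reported here.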

Additional observations from a re-analysis of the deposited data

How the results depend on the processing

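No paired analysis was possible because the hashtag numbers name mice and pair none across genotypes. Over 60 results, 787 alternative values were computed. Of these, 711 kept direction and side of the threshold or stayed within the spread. Another 26 reversed, 16 were weaker, 2 were stronger and 32 moved. The exact permutation tests could not change side, because their smallest possible p lies above the threshold. For the results of those tests the tally speaks to direction only and not to size. Of the results, 46 never reversed. The cause of a change was not tested unless the alternative itself used fewer mice or genes. The count of members called over all B cells (1) was 0 in DESeq2, 0 with library totals and no TMM, 0 at clustering resolution 0.4 and 2 with no filter, and that in marginal zone B-like cells (1) was 0 in DESeq2, with no TMM, with ratio hashtag calls and with mitochondrial UMIs under 5%. Leaving out 1 mouse gave 0 to 8 over all B cells and 0 to 1 in marginal zone B-like cells. The 8 came without LDHA-sufficient mouse 3, where 1397 of 9561 genes were called.

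With mitochondrial UMIs under 5% the median log2 value of members was 0.0095 in activated, -0.0843 in follicular and -0.0517 in marginal zone B-like cells. In follicular B-like cells it was -0.0816 with ratio calls and 0.00138 at resolution 0.4. Ratio calls turned Rps27l to 0.073 and its share of the pair to 0.081 points in non-GC B cells, and its difference of effects (GC cluster minus non-GC B cells) to -0.121, which was -0.0588 with no filter. Genotype differences in share became 0.491 points as a mean over cells in activated B-like cells, and -0.912 (ratio calls) and -0.861 (mitochondrial limit) in follicular B-like cells, and the marginal zone minus follicular contrast became 0.216 and 0.0188.

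The mean share in follicular B-like cells (23.4%) was 24.4% without immunoglobulin and mitochondrial UMIs, 22.5% as a mean over cells, 25.7% with ratio calls, 19.3% and 21.6% at resolutions 0.4 and 1.2, and 24.8% under the mitochondrial limit. In marginal zone B-like cells it was 21.1% as a mean over cells and 26.6% under the mitochondrial limit, in cluster 2 it was 14.9% without immunoglobulin and mitochondrial UMIs, and in plasma cell-like cells 12.3% without them and 11.3% with ratio calls.

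Leaving out each mouse in turn, Rps27l in non-GC B cells ran from -0.0542 to 0.011 and Rps27 from -0.0267 to 0.0653. The median member ran from -0.16 to 0.116 in activated B-like cells and from 0.015 to 0.206 for the difference of effects, where Rps27l ran from -0.28 to 0.241, and Rps27l in GC B-like cells ran from -0.116 to 0.271. The share difference in activated B-like cells ran from -1.68 to 0.821 points. The Rps27l share of its pair differed by -0.163 to 0.0123 points in non-GC B, -0.977 to 2.02 in GC B-like and -0.101 to 0.143 in follicular B-like cells, and that of Rpl22l1 by -0.5998 to 0.521 over all B and -0.924 to 0.0184 in non-GC B cells.

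In an alternative added once the data had been seen, every mouse was set to the pooled mix of clusters, plasma cells left out. The share over all B cells was then 19.7%, 20.2% and 20.5% in LDHA-sufficient and 21.0%, 20.8% and 18.9% in LDHA-deficient mice. Activated and marginal zone B-like cells were not found at resolution 0.4, and GC B-like cells were too few under the mitochondrial limit, so the gene tests within these states were not run there. The test of the difference of effects (GC cluster minus non-GC B cells) had no minimum of cells. It was run under the mitochondrial limit with those few GC B-like cells, and its median over members was 0.186.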
